A study of Mus musculus with 10 samples.

Results

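Aminoacyl-tRNA synthetases are the enzymes that load each tRNA with its amino acid. Their transcripts were followed in brown adipose tissue from between the shoulder blades of mice, fat that burns fuel to make heat, with and without cold exposure. Members were taken by gene symbol from the deposited count table: every one-letter synthetase symbol with or without a final 2, both subunits of the cytosolic phenylalanine enzyme, the joint glutamate and proline enzyme Eprs, the threonine enzyme Tarsl2 and the scaffold genes Aimp1 and Aimp2. The rule found 40 of 20295 genes, and all 40 had enough reads to be tested. They were split into 21 cytosolic enzymes, 17 mitochondrial enzymes and the 2 scaffold genes. Tarsl2 and Aimp2 end in 2 but are not mitochondrial, and were placed by what they encode. The animals were 10 male C57BL/6JBomTac mice, 8 weeks old and each housed alone with chow and water freely available. Of these, 5 stayed at 22 °C as controls, and 5 were moved to 4 °C for 3 days. Poly-A RNA of each mouse gave 1 library. All mice were unmodified animals of 1 strain and 1 sex, and 22 °C is the labels' room temperature, not a warm reference.

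Protein is made in 2 places in an animal cell. Cytosolic ribosomes use tRNAs charged by the cytosolic synthetases, several of which sit together in a multisynthetase complex held by the scaffold proteins Aimp1 and Aimp2. Mitochondria carry their own ribosomes and tRNAs, which translate the few respiratory chain subunits encoded by mitochondrial DNA, and a second set of nuclear genes provides their synthetases. Gars and Kars serve both compartments from 1 gene, which is why no Gars2 or Kars2 is in the list, and mitochondrial glutamine tRNA is charged through Ears2 and a further amidation step. Brown adipocytes are packed with mitochondria. Many cytosolic synthetase genes are known targets of ATF4, the transcription factor of the amino acid and stress response, which binds a C/EBP-ATF response element (CARE).

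Promoter windows, 250 bases before to 50 after the RefSeq start on GRCm38.p6, were found for 29 of the 40 members. The CARE letters TGATGNAA, read on both strands, were in 5 of 13 cytosolic windows, 0 of 14 mitochondrial windows and 0 of 2 scaffold windows. Over all genes with a window the share was 4.51%, and 2.67% over the tested genes with one. A stretch of 30 bases around a match in each of the 5 genes is shown because these genes were high together in 1 control mouse, control 1. Capitals mark the CARE letters, which appear as their reverse complement where the match is on the other strand.
Yars: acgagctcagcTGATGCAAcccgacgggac
Gars: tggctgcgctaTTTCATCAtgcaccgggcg
Aars: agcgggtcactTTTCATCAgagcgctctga
Iars: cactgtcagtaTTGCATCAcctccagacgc
Tars: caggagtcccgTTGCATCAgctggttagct
Counting the first transcribed base as 1, the matches shown began at 4 in Yars (chr4:129189895-129189924, plus strand), -30 in Gars (chr6:55037960-55037989, plus), 10 in Aars (chr8:111033840-111033869, plus), 8 in Iars (chr13:49682126-49682155, plus) and -15 in Tars (chr15:11399655-11399684, minus). A match describes letters in this window and is not evidence of binding. Of 5 other motifs searched on both strands, the ETS letters CCGGAAGT were in Farsa, Rars2 and Aimp1 (4.31% of all genes, 9.49% of tested genes) and the E-box CACGTG was in Aars, Farsb, Iars, Tars and Ears2 (8.09% and 12%). The NRF1 letters GCGCATGCG were in Wars2 and, in 2 places, in Vars2 (1.95% and 4.41%). The ERR letters TCAAGGTCA (0.466% and 0.326%) and the CRE letters TGACGTCA (2.03% and 3.61%) were in none of the 29 windows. No other motif overlapped a CARE match.

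Library totals ran from 4446163 to 5776905 counts in control and from 5676963 to 6923932 in cold mice, and single members had 42 to 1967 counts in a library. Levels are normalised read counts in CPM, relative to the library total scaled by the trimmed mean of M-values (TMM). Over all tested genes, control 2 was the highest control for 3196 and the lowest for 3143 of 11229 genes, more than any other control. Cold 5 was the highest cold library for 3372 and the lowest for 3298, more than any other cold library. Summed brown adipocyte markers were high in every library, at 25740 to 30920 CPM in control and 36240 to 41710 in cold mice, without overlap. By the test 3 of these 12 markers were higher (Ucp1, Elovl3 and Cox7a1) and 1 lower (Adipoq), beside 10.2% and 9.14% of all genes. Ucp1 alone had 9123 CPM in the control mean and 18530 in the cold mean. Summed skeletal muscle markers were 6.66 to 97.0 CPM in control mice and 7.11 to 14.6 in cold 1, 4 and 5, but 402 in cold 2 and 284.5 in cold 3. Macrophage markers had 90.5 to 205 against 70.1 to 359 CPM, with 2 of 7 higher in the cold by the test (Cd68 and Itgam). Of the rest, Lyz2 and Emr1 had positive log2 fold changes (0.96 and 0.61). Those of Csf1r, Mrc1 and Cd163 were negative (-0.28, -0.03 and -0.75), and none of these passed. Endothelial markers had 660 to 868 against 816.5 to 977 CPM, also with 2 of 7 higher (Emcn and Kdr), beside 10.2% of all genes. Pecam1, Cdh5 and Egfl7 had positive log2 fold changes as well (0.43, 0.22 and 0.01). Those of Tek and Tie1 were negative (-0.15 and -0.11), and none of these other endothelial genes passed. Lymphocyte markers stayed under 6.68 CPM in sum, and white adipocyte markers had 48.05 to 152.5 against 25.6 to 108 CPM, with 1 of 4 tested (Nnat) higher and Hoxc9 and Hoxc10 at 0 in every library. The part of these differences in the results was not tested. The tissue was sequenced whole, so fewer cells of a type and less RNA per cell cannot be told apart.

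Few synthetase genes differed between cold and control mice by the test, and those that did were mitochondrial. Of the 17 mitochondrial genes 3 rose, Cars2, Sars2 and Wars2, and 2 fell, Rars2 among them, at an adjusted p under 0.05 in edgeR's quasi-likelihood test with Benjamini-Hochberg adjustment over all genes. Over all 11229 genes tested, 19.3% passed this threshold, 10.2% as higher and 9.14% as lower. Set against that, 5 of 17 is 29.4%, and none of the 21 cytosolic genes passed. The 2 scaffold genes did not pass either. Whether the 2 sets differ in their share was not tested. At an unadjusted p under 0.05 the counts were 8 mitochondrial (3 higher, 5 lower) and 2 cytosolic genes (Gars higher, Mars lower), where 34.1% of all genes reached that level. DESeq2 and limma-voom, which called 2451 and 2135 of all genes, also called 0 cytosolic genes.

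The median log2 fold change was -0.08 in the cytosolic set and 0.06 in the mitochondrial set, beside -0.02 over all genes tested. The mitochondrial median was -0.06 without control 2, and the cytosolic median 0.04 without control 1. In size without sign, the median change was 0.14 for cytosolic, 0.20 for mitochondrial and 0.22 for all genes. The cytosolic genes spanned -0.27 to 0.27, and the largest mitochondrial value was 1.37. In the cytosolic set 7 genes had a positive and 14 a negative estimate, and in the mitochondrial set 9 and 8. Summed over the set, the cytosolic genes had 1508 ± 271 CPM in control and 1487 ± 57.2 in cold libraries (SD, n = 5 each). The mitochondrial sum was 1091 ± 78.0 against 1136 ± 52.0 CPM, and without Cars2 it was 1039 ± 76.7 against 1003 ± 44.8. Both pairs of sums differ by less than the spread between mice.

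**Figure D1:**
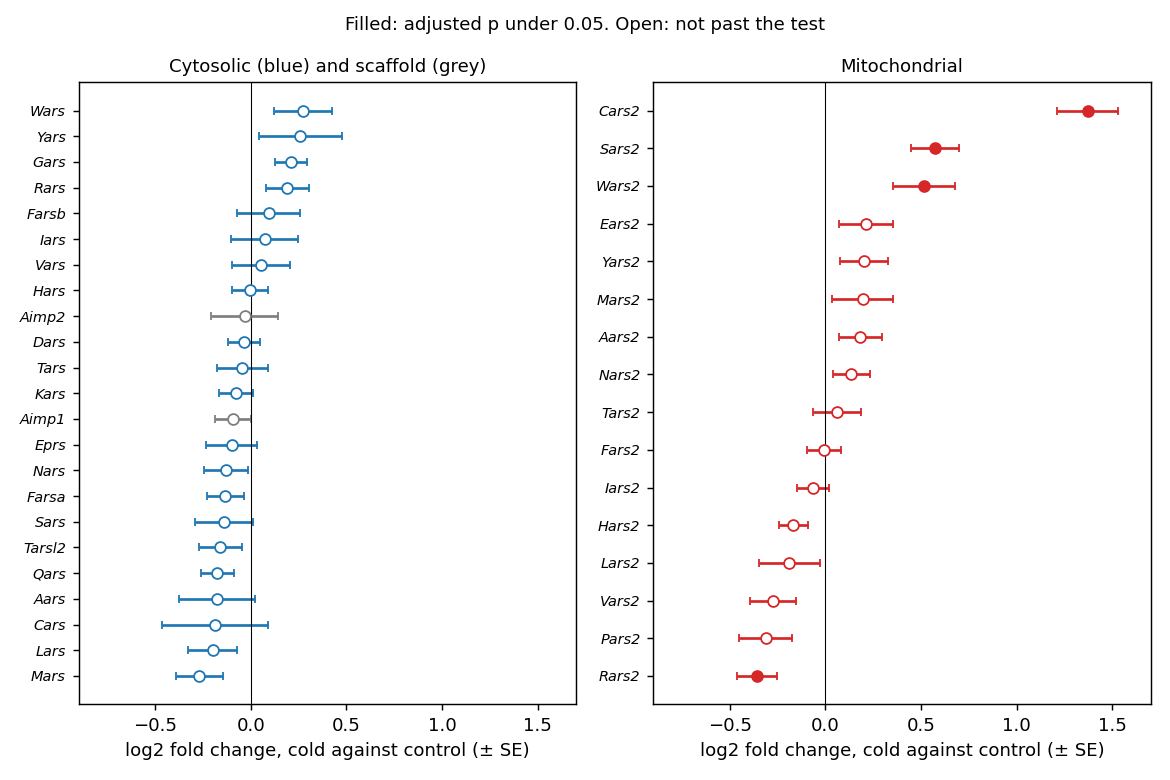
Log2 fold change of cold against control for 39 members, with its standard error; the left panel has cytosolic genes in blue and scaffold genes in grey, the right panel has mitochondrial genes in red, and filled circles are genes at an adjusted p under 0.05. The filled circles shown are mitochondrial, from -0.36 for Rars2 to 1.37 for Cars2, and the cytosolic genes lie between -0.27 and 0.27.

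Cars2, the mitochondrial cysteine enzyme, which is also known to make cysteine persulfides, had the largest change of the 40 genes. Control mice 1 to 5 had 64.0, 52.0, 50.55, 48.2 and 44.2 CPM, and cold mice 1 to 5 had 168, 138, 160.0, 109 and 94.1. Every cold library was above every control, and cold 4 and 5 were the lowest of the cold group. The means were 51.8 ± 7.46 and 133.8 ± 32.0 CPM, a 2.59-fold rise (log2 1.37, SE 0.16, adjusted p = 0.000105 in edgeR's quasi-likelihood test). The gene lies at chromosome 8, 11514017 to 11550771 on the minus strand (build mm9, as for all other gene positions), and the value sums its RefSeq gene model of 1850 counted bases. The estimate stayed between 1.28 and 1.47 when any 1 mouse was left out, and it was 1.26 (adjusted p = 0.00280) without cold 2 and 3, the 2 libraries with most muscle markers, where 7.84% of all genes passed. Per kilobase of counted sequence, Cars2 moved from rank 11 of the 40 genes in control to rank 3 in the cold. Its nearest neighbour Carkd, 730 bases from its 3′ end on the other strand, had 60.1 ± 6.35 and 62.9 ± 6.16 CPM (log2 0.07, adjusted p = 0.676).

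Sars2 encodes the mitochondrial serine enzyme (chromosome 7, 29526987 to 29538898, plus strand). Control mice had 24.2, 15.5, 16.3, 19.4 and 18.8 CPM, and cold mice had 25.9, 27.5, 32.2, 27.75 and 26.6. The groups did not overlap, although control 1 came within 2 CPM of the lowest cold library. The means were 18.8 ± 3.42 and 28.0 ± 2.47 CPM, a 1.49-fold rise (log2 0.57, SE 0.13, adjusted p = 0.00758 in the edgeR test). Mrps12, a mitochondrial ribosomal protein gene that starts 186 bases away in the opposite direction, had a log2 fold change of -0.01 (adjusted p = 0.944). Without cold 2 and 3 together, Sars2 was at 0.51 with an adjusted p of 0.0715.

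Over all genes, cold and control libraries did not overlap for 7.39% as higher and 6.57% as lower. Among the 17 mitochondrial members they did not overlap for 2 as higher, Cars2 and Sars2, and for 1 as lower.

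Rars2, the mitochondrial arginine enzyme (chromosome 4, 34562207 to 34607416, plus strand), fell. Control mice had 38.5, 31.6, 36.3, 39.1 and 40.0 CPM, and cold mice had 30.4, 30.6, 32.5, 24.7 and 26.6. The groups overlapped through control 2, which was below cold 3. The means were 37.1 ± 3.37 and 29.0 ± 3.20 CPM (log2 -0.36, SE 0.10, adjusted p = 0.0303 in the edgeR test). The call was lost without cold 4 (-0.30, adjusted p = 0.0769), control 4 (-0.34, 0.0670) or control 5 (-0.33, 0.0697), without library scaling (-0.32, 0.0542), with the replicate number as a block (-0.36, 0.0731, where 15.9% of all genes passed) and without cold 2 and 3 (-0.45, 0.0546). Orc3, an origin recognition gene that starts 15 bases away in the opposite direction, was at -0.05 (adjusted p = 0.726).

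Wars2, the mitochondrial tryptophan enzyme (chromosome 3, 98945013 to 99024126, plus strand), rose near the threshold. Its control values were 24.2, 15.3, 27.1, 15.0 and 16.5 CPM, and its cold values 25.4, 28.6, 29.2, 27.1 and 29.2. Controls 1 and 3 were close to the cold level, and the other 3 controls were well below it. The means were 19.6 ± 5.63 and 27.9 ± 1.63 CPM (log2 0.52, SE 0.16, adjusted p = 0.0418 in the edgeR test). Leaving out any 1 library other than control 1 or control 3 ended the call, with adjusted p from 0.0572 (without cold 1) to 0.0981 (without control 4) and estimates from 0.43 to 0.55. Without cold 2 and 3 together it was at 0.48 (adjusted p = 0.185).

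**Figure D2:**
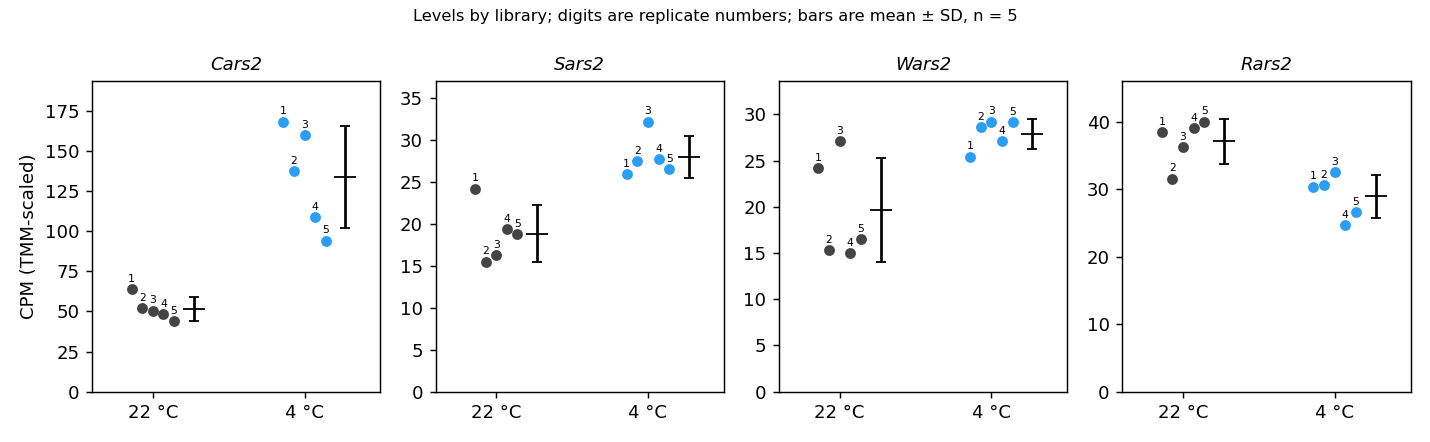
Level in CPM (linear axis from 0) of 4 members that passed the test, 1 point per mouse with its replicate number, and mean ± SD of 5 mice beside each group. Cars2 and Sars2 were higher in every cold library than in every control, and Wars2 and Rars2 overlapped between groups.

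The other 12 mitochondrial genes did not pass the test, with adjusted p from 0.123 to 0.964. Estimates were positive for Ears2 (0.21), Yars2 (0.20), Mars2 (0.20), Aars2 (0.18), Nars2 (0.14) and Tars2 (0.06), the enzymes for glutamate, tyrosine, methionine, alanine, asparagine and threonine. They were negative for Fars2 (-0.01), Iars2 (-0.07), Hars2 (-0.17), Lars2 (-0.19), Vars2 (-0.27) and Pars2 (-0.31), the enzymes for phenylalanine, isoleucine, histidine, leucine, valine and proline. Pars2 (chromosome 4, 106323674 to 106327887, plus strand) had the largest estimate in size among genes that did not pass. Its levels were 16.1, 11.8, 14.5, 13.3 and 12.2 CPM in control and 13.1, 10.6, 10.8, 8.88 and 11.2 in cold mice (SE 0.14, adjusted p = 0.132 in the edgeR test). Of the cold libraries, 4 lay below all controls and cold 1 lay among them.

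Vars2 (chromosome 17, 35792580 to 35804537, minus strand) came next, with 52.9, 36.9, 50.8, 44.8 and 46.0 CPM in control and 39.3, 29.8, 40.3, 41.5 and 40.2 in cold mice (SE 0.12, adjusted p = 0.123). Control 2 lay among the cold libraries, and cold 2 was well below the rest of its group. Without control 2 the edgeR test passed Vars2 as lower (-0.35, adjusted p = 0.0347), and without control 2 and cold 5 as well (-0.37, adjusted p = 0.0298, where 25.3% of all genes passed). Lars2 had 1 high control: control 4 had 331 CPM, the other controls 164 to 223 and the cold mice 184 to 202. Without control 4 its estimate was 0.01. Hars2 and Hars start 74 bases apart in opposite directions, and their estimates were -0.17 (adjusted p = 0.133) and 0.00 (adjusted p = 0.978).

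Among the cytosolic genes the largest positive estimates were those of Wars (0.27), Yars (0.26), Gars (0.21) and Rars (0.19), the enzymes for tryptophan, tyrosine, glycine and arginine. Wars (chromosome 12, 110098240 to 110132384, minus strand) had 104.5, 52.8, 68.2, 65.5 and 64.8 CPM in control and 77.6, 82.3, 81.5, 100.4 and 87.35 in cold mice (SE 0.15, adjusted p = 0.229 in the edgeR test). Control 1 was above every cold library, while the other 4 controls were below every one. The lowest estimates were those of Mars (-0.27), Lars (-0.20), Cars (-0.19), Aars (-0.18) and Qars (-0.17), for methionine, leucine, cysteine, alanine and glutamine. Mars had an adjusted p of 0.140, and it passed as lower without cold 5 (-0.36, adjusted p = 0.0416) and without control 2 and cold 5 (-0.43, adjusted p = 0.00770). Mars shares 68 bases at its end with Ddit3 on the other strand, which was at -0.48 (adjusted p = 0.0646), and no strand setting of the counting is given in the sources used here.

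The other 11 cytosolic genes (Farsb, Iars, Vars, Hars, Dars, Tars, Kars, Eprs, Nars, Farsa and Sars) had estimates between -0.14 and 0.09, and Tarsl2 was at -0.16. The scaffold genes Aimp1 and Aimp2 were at -0.09 and -0.03. The sign of 14 of these small estimates among the 40 changed under at least 1 alternative. Yars also shares 30 bases at its end with C77080 on the other strand, which rose by 0.93 (adjusted p = 0.00756), and Farsb shares 2329 bases with Sgpp2, which was at 0.0337 and 0.167 CPM.

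Control 1 stood above the other controls in the cytosolic set. In that mouse 17 of 21 cytosolic genes (81.0%) had their highest control value, where control 1 was highest for 23.4% of all genes. Taken as log2 CPM minus the median of the other 4 controls, the median over the set was 0.43, with 20 of 21 genes above 0, and over all genes it was 0.00. The alanine enzyme gene Aars had 207 CPM in control 1 and 89.8 to 121 in the other 4, and the isoleucine enzyme Iars had 63.8 against 32.5 to 35.5. Yars had 80.3 against 26.9 to 48.3 CPM, the serine enzyme Sars 190.3 against 101 to 133, and Cars 32.6 against 10.98 to 20.2. For each of these 5 genes control 1 was also above every cold library. The mitochondrial set moved the same way by less in this library, with 11 of 17 genes (64.7%) highest and a median of 0.22.

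Without control 1 the edgeR test passed 3 of 21 cytosolic genes, where 20.3% of 11399 genes passed, 10.5% as higher and 9.87% as lower. These were Wars (0.45, adjusted p = 0.0103), Yars (0.53, adjusted p = 0.0190) and Gars (0.28, adjusted p = 0.0180), all higher in the cold. The set then had 13 positive and 8 negative estimates and a median of 0.04, and the mitochondrial set still had 3 higher and 2 lower genes with a median of 0.10. Control 1 was not apart in depth, with 4600091 counts, in brown adipocyte markers, with 25920 CPM, or in skeletal muscle markers, with 17.65 CPM, all within the range of the other controls. It lay outside that range for Schwann cell markers, with 206.5 CPM beside 123 to 177, and erythroid markers, with 8.60 beside 9.19 to 18.8, and their part in the pattern was not tested.

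The 5 genes with the CARE letters in their promoter had a median of 0.92 above the other controls in control 1. Aars (1.09), Yars (1.03), Iars (0.92) and Tars (0.65) lay above the cytosolic median of 0.43, and Gars (0.36) below it. The 8 cytosolic genes with a window and without the letters had a median of 0.25, from -0.17 to 0.80, and the 14 mitochondrial genes one of 0.23. Over the whole table, the 229 tested genes that hold the letters had a median of 0.02 in this library, and the 8348 without them -0.01. The cold against control estimates of the 5 holders ran from -0.18 to 0.26 with a median of 0.07. These values are descriptions of 1 library, and the grouping by motif was made with the pattern known.

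Other libraries also shifted. Control 2 had the lowest control value for 10 of 17 mitochondrial genes (58.8%, beside 28.0% of all genes) with a median of -0.29, larger in size than the mitochondrial 0.22 of control 1. Its cytosolic median was -0.20. Cold 4 was the highest cold library for 10 of 21 cytosolic genes (47.6%, beside 18.4% of all genes), with a median of only 0.07. Replicate spread was narrower in the cold: the median coefficient of variation of the cytosolic genes was 18.2% in control and 8.21% in cold mice, that of the mitochondrial genes 14.4% and 8.82%, and that of all genes 16.7% and 12.6%.

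**Figure D3:**
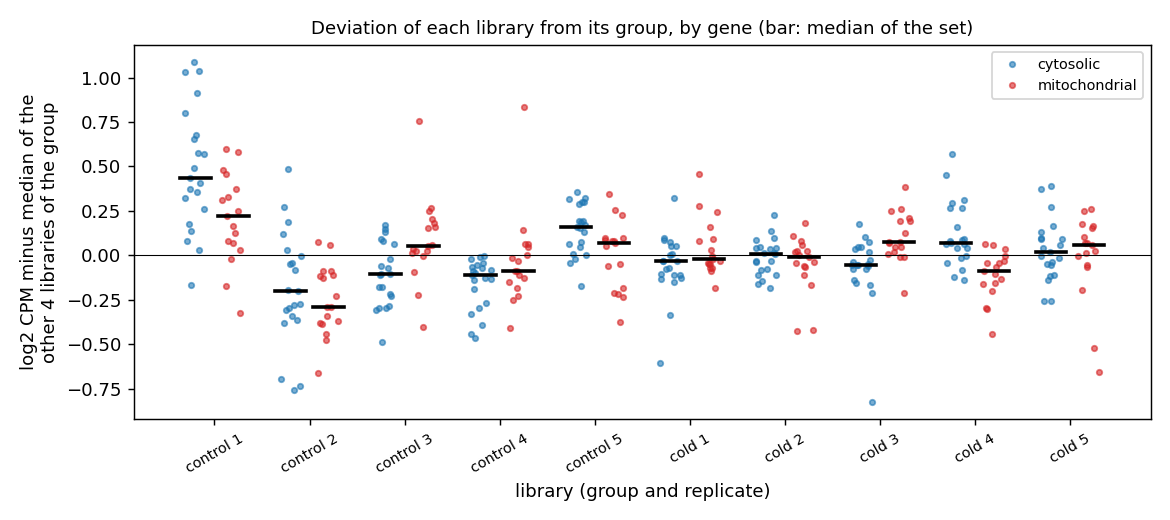
Log2 CPM of each member in each library minus the median of the other 4 libraries of its group, with cytosolic genes in blue, mitochondrial genes in red and black bars at the set medians. Control 1 stands highest, with medians of 0.43 and 0.22, and control 2 has the lowest mitochondrial median, -0.29; the cold libraries all stay between -0.09 and 0.07.

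Levels of different genes were compared per length, as CPM per kilobase of counted sequence. In control mice the cytosolic genes ran from 5.46 for Vars to 87.1 for Gars with a median of 25.1, and the mitochondrial genes from 4.41 for Pars2 to 82.9 for Iars2 with a median of 15.1. Gars, the dual glycine enzyme (chromosome 6, 54987995 to 55029498, plus strand), had 104, 80.9, 79.1, 81.2 and 90.2 CPM per kilobase in control and 101, 94.8, 103, 106 and 98.7 in cold mice. Control 1 lay among the cold libraries and the other 4 controls below them. Iars2, the mitochondrial isoleucine enzyme (chromosome 1, 187110541 to 187153280, minus strand), had 89.7, 79.9, 84.8, 74.8 and 85.4 in control and 74.96, 78.5, 79.2, 72.0 and 91.4 in cold mice. These ranges overlapped widely, and Gars and Iars2 did not differ in control mice beyond their spread (87.1 ± 10.3 and 82.9 ± 5.71). Fars2 (57.1 ± 6.05) and Lars2 (56.2 ± 17.4) followed in control mice, also level with each other. In the cold the order began with Gars (100.7 ± 4.23), Iars2 (79.2 ± 7.40) and Cars2 (72.3 ± 17.3), and Iars2 and Cars2 overlapped. The lowest were Pars2 (3.55 ± 0.49) and Cars (5.18 ± 1.56).

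Each mitochondrial gene was set against the cytosolic gene of the same amino acid, with Ears2 and Pars2 both set against Eprs and Fars2 against Farsa, which gave 17 pairs. Per length, the mitochondrial gene was the higher of the pair in all 5 controls for 7 pairs and the cytosolic gene for 9. Iars2, Cars2, Lars2 and Fars2 exceeded their cytosolic partners most, with Iars2 at 9.68 ± 2.03 times the level of Iars. The place of Fars2 rests on the subunit chosen, since Farsa had 12.9 and Farsb 27.8 CPM per kilobase in control mice. The ratio was higher in every cold library than in every control for 2 pairs, lower for 1, and overlapped for 14. The pairs without overlap were those of Cars2, Sars2 and Rars2, which passed the test as single genes. Single genes did not overlap for 7.39% of all genes as higher and 6.57% as lower, and no such share was computed for ratios. Cars2 stood at 5.29 ± 1.91 times Cars in control (3.42 to 8.24) and 16 ± 8.55 times in cold mice (8.34 to 26.4). Cars itself was at 19.04 ± 8.25 and 16.7 ± 5.04 CPM (log2 -0.19, SE 0.28, adjusted p = 0.675).

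The ratio of Sars2 to Sars was 0.290 ± 0.031 in control (0.247 to 0.324) and 0.466 ± 0.046 in cold mice (0.437 to 0.547). Sars was at 129 ± 36.8 and 117 ± 5.19 CPM (log2 -0.14, adjusted p = 0.546). The ratio of Rars2 to Rars was 1.36 ± 0.106 in control (1.21 to 1.48) and 0.931 ± 0.099 in cold mice (0.761 to 1.0), with Rars at 0.19 on the log2 scale (adjusted p = 0.261). Both ratios moved by more than their spread, although neither cytosolic partner passed the test. Wars2 to Wars went from 0.181 ± 0.045 to 0.211 ± 0.022, with overlap. The ratio of Vars2 to Vars was 1.94 ± 0.228 and 1.56 ± 0.272, that of Pars2 to Eprs 0.153 ± 0.039 and 0.128 ± 0.026, and these overlapped as well.

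**Figure D4:**
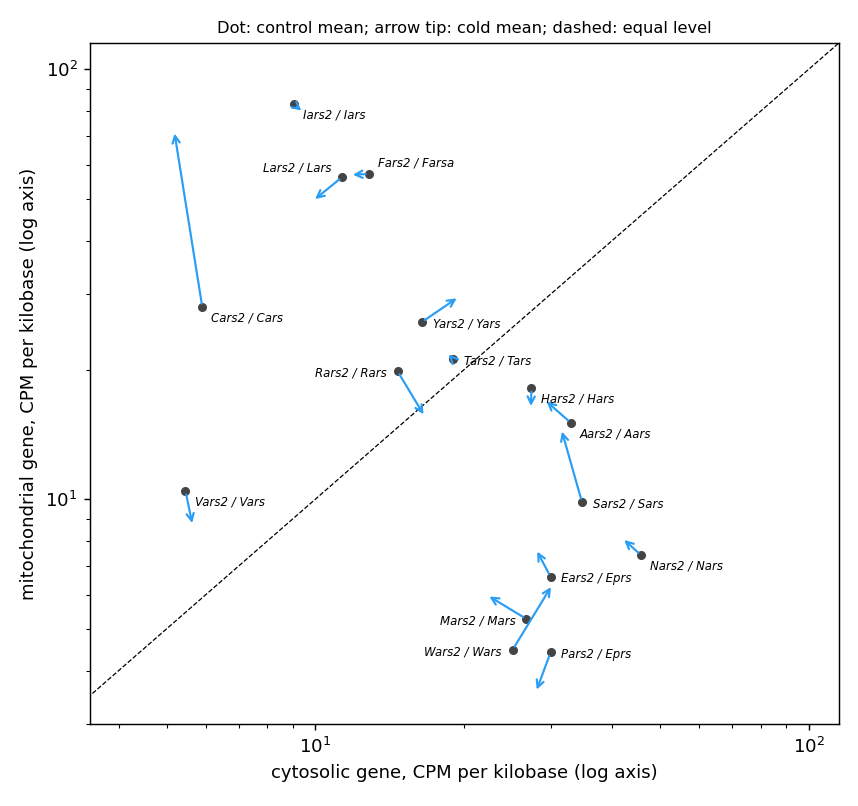
Mean level per length of 16 mitochondrial genes against the cytosolic gene of the same amino acid, in CPM per kilobase on log axes; dots are control means, arrow tips cold means and the dashed line equal levels. Above the line the mitochondrial gene is the higher of the pair; the Cars2 arrow is the longest, from 28.0 to 72.3 with Cars at 5.91 and 5.18, and the Rars2 arrow ends just below the line.

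Both structural classes of synthetases, which differ in the fold of their catalytic core, were counted next. Of 19 class I genes 2 were higher and 1 lower (15.8%), with a median log2 fold change of 0.05, and of 19 class II genes 1 was higher and 1 lower (10.5%), with a median of -0.04. Over all genes 19.3% passed. The class I count was 1 without cold 4, control 4 or control 5 (13.9%, 15.3% and 15.6% of all genes) and 5 without control 1 (20.3%). Among the 11 genes of the multisynthetase complex none passed, the median was -0.08, and 2 reached an unadjusted p under 0.05. Its auxiliary protein gene Eef1e1 was at 0.37 (adjusted p = 0.101) and Mars at -0.27, and without cold 5 Mars passed.

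Over 3 lists of genes that work beside the synthetases, for charging, mitochondrial translation and mitochondrial tRNA modification, 9 of 46 passed the test (19.6%, beside 19.3% of all genes). Of 18 genes for charging partners and quality control, 1 was higher and 1 lower. The lower one was Aarsd1, an editing protein for misloaded tRNA, which fell by 0.42 (adjusted p = 0.0485 in the edgeR test). The median of the list was -0.07. Aarsd1 passed in only 2 of the 10 edgeR fits that left out 1 library (without control 1 or control 3). The list's count was 0 without cold 2, 3 or 4 or control 4 (13.8% to 15.3% of all genes passed), and 1 without cold 1 or 5 or control 2, 3 or 5 (15.2% to 21.4%).

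Of 11 mitochondrial translation factors 2 rose and none fell (18.2%, beside 19.3% of all genes), with a median of 0.19 and 9 positive estimates. Gfm1, the mitochondrial elongation factor G, went from 242 ± 37.4 to 322 ± 24.4 CPM (log2 0.41, adjusted p = 0.0143 in the edgeR test), and Mrrf, the ribosome recycling factor, from 35.6 ± 4.53 to 46.9 ± 5.04 (0.40, adjusted p = 0.0219). Mrrf was lost, leaving a count of 1, without cold 1, 2 or 3 or control 5 (13.8% to 15.6% of all genes passed). Both were lost without cold 2 and 3 together (7.84%). Among 12 cytosolic elongation and termination genes none passed with any tool or library left out, none had an unadjusted p under 0.05, and the median was -0.01. The smallest p there were those of Eif5a2 (0.37, adjusted p = 0.367) and Gspt2 (-0.33, adjusted p = 0.401).

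Of 17 genes for processing and modifying mitochondrial tRNA, 2 were higher and 3 lower, beside 10.2% and 9.14% of all genes, with a median of -0.05. Osgepl1, which makes the threonylcarbamoyl mark on mitochondrial tRNAs, fell from 43.8 ± 3.92 to 31.3 ± 3.20 CPM (log2 -0.49, adjusted p = 0.00438 in the edgeR test). Trit1, which isopentenylates tRNA in both compartments, fell from 44.3 ± 10.96 to 27.65 ± 2.28 CPM (-0.68, adjusted p = 0.00926), and both kept their call whichever 1 library was left out. Trit1 lost it without cold 2 and 3 together. Hsd17b10, a subunit of mitochondrial RNase P, fell from 270.4 ± 148 to 137 ± 42.2 CPM (-0.98, adjusted p = 0.0293), a call lost without cold 1, 2, 3 or 4. Control 2 had 534 CPM and the other controls 187 to 219, and without control 2 the estimate was -0.59 (adjusted p = 0.0243). Nsun3 and Pus1, a methyltransferase and a pseudouridine synthase, rose by 0.48 and 0.35 (adjusted p = 0.0406 and 0.0492). The count of the list was 2 without cold 1, 2 or 3 (13.8% to 15.2% of all genes passed) and 3 without cold 4 or control 3, 4 or 5 (13.9% to 17.2%), and Nsun3 and Pus1 each passed in 2 of the 10 fits with 1 library left out.

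The amino acid and stress response was read from 2 lists outside the synthetases. The first held 11 genes for subunits of the initiation factor eIF2, its kinases and their regulators, and subunits of its phosphatases. Among them only Eif2ak3, the endoplasmic reticulum stress kinase PERK, rose, by 0.41 (adjusted p = 0.0291 in the edgeR test). None fell (9.09% passed, beside 19.3% of all genes), and the median was -0.09. The count of this list was 0 without cold 1, 2 or 4 or control 3 or 5 (13.9% to 17.2% of all genes passed), and 2 without cold 5 (21.4%). Of 27 tested genes for ATF4 and its targets, 2 were higher and 3 lower (18.5%, beside 19.3% of all genes), with a median of 0.04. Atf4 itself was at 192 ± 69.7 and 215 ± 29.2 CPM (0.17, adjusted p = 0.594). Eif4ebp1, a brake on translation initiation, fell by 0.97 (adjusted p = 3.07e-05), Slc1a5, a glutamine carrier, by 0.68 (adjusted p = 0.000436) and Nupr1, a stress-induced regulator, by 0.75 (adjusted p = 0.00223). Fgf21, a secreted metabolic hormone, rose by 2.82 (adjusted p = 0.000683) and the carrier subunit Slc3a2 by 0.82 (adjusted p = 0.0262), all in the edgeR test. The level of Fgf21 was low, at 0.34 to 1.36 CPM in control and 2.24 to 7.77 in cold libraries. The count over this list was 9 without control 2, where 21.4% of all genes passed, and Slc3a2 was lost without cold 3 or 4 or control 3, 4 or 5.

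In control 1, the library with high cytosolic synthetases, 14 of these 27 genes also had their highest control value, beside 23.4% of all genes. The median of the list was 0.47 above the other controls. Atf4 had 282 CPM there, 252 in control 2 and 135 to 146 in controls 3 to 5. Atf5 had 755 against 230 to 566.5 CPM, the asparagine synthetase gene Asns 127 against 80.85 to 97.6, and the cystine carrier gene Slc7a11 47.05 against 8.63 to 28.5. Other genes of the list had their lowest control value in control 1. Among them were Cebpb, with 131 against 189 to 274 CPM, and Ddit4, with 10.4 against 13.1 to 60.8. Beside the same 23.4% of all genes, control 1 was also highest for 8 of 11 mitochondrial translation factors (median 0.28) and 9 of 17 genes of mitochondrial tRNA modification (0.20). It was highest for 8 of 18 charging partners (0.07), 2 of 12 genes of cytosolic elongation (0.03), 2 of 11 of the eIF2 list (0.06) and 1 of 13 of amino acid uptake (0.03).

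Of 13 tested genes for amino acid uptake 3 were higher and 2 lower, beside 10.2% and 9.14% of all genes, with a median of -0.24 that was positive under some alternatives (0.27 in limma-voom). The taurine carrier Slc6a6 went from 171 ± 5.75 to 259 ± 28.8 CPM (log2 0.60, adjusted p = 0.000418 in the edgeR test) and Slc43a2, a carrier of large neutral amino acids, from 58.75 ± 6.87 to 121 ± 32.0 (1.04, adjusted p = 0.000813). Slc1a3, a glutamate carrier, fell from 131 ± 25.6 to 68.9 ± 7.93 CPM (-0.92, adjusted p = 0.000443). Slc1a5 and Slc3a2, counted above among the ATF4 targets, complete the 5. The lists of this and the preceding paragraphs share members, so their counts are not separate evidence.

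In the authors' deposited table of the same comparison, the same 5 synthetase genes had an adjusted p under 0.05, 3 higher and 2 lower. All 40 members had the same sign there as here, and no log2 fold change differed by more than 0.0047.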

How the data were processed

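Poly-A RNA of 4 µg of total RNA per mouse was sequenced from 10 brown adipose tissue samples, per the labels' protocols. The deposited count table holds raw counts per RefSeq gene model and library and the bases counted per gene, per the file headers. STAR, edgeR and the build mm9 are named in the submitters' processing notes. Their versions, the read counter with its strand setting and the annotation used for counting are not stated in the sources used here. A second table deposited by the authors holds their own comparison: per gene, log2 values (fold change and mean CPM) and p-values, raw and adjusted, per the file headers. Gene coordinates are those of the deposited mm9 table; promoter windows come from RefSeq on GRCm38.p6 and were matched by symbol.

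The main test was edgeR 4.0.16 (quasi-likelihood, TMM scaling, filterByExpr) on all 10 libraries, in R 4.3.3, with Benjamini-Hochberg adjustment over 11229 genes and a threshold of 0.05. The common biological coefficient of variation was 0.166. The labels name separate single-housed mice, and no 2 libraries of a group agreed within sampling noise (chi-square per degree of freedom 3.10 to 39.0). One tag calls the cold samples room temperature next to 4 °C, but their titles, source names and the protocol say cold. Control columns carry no group word and were matched by replicate number. Per-library CPM are counts over the TMM-scaled total, and log2 CPM for the deviations used a prior count of 2. Levels between genes are CPM per kilobase of counted bases. In all fits, 27 genes whose symbol was missing, repeated or date-like were named by their RefSeq identifier. The fitting steps were tested on simulated counts.

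The members, lists, motifs and alternatives were chosen with earlier results of these data known. Named by rule were the members that passed, the 3 largest changes that did not, the most abundant member of each set per length and their pair partners, and from each list up to 4 members that passed, or the 2 with the smallest p. Other genes are named because their values were seen, or as neighbours. Some members and list genes are not reported here by name, but are kept in all counts. Alternatives were other scalings, filters, DESeq2 1.42.0, limma-voom 3.58.1, a replicate block and leaving out libraries.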

Additional observations from a re-analysis of the deposited data

Results flagged for a closer look

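In each group of 5 mice the gap between the farthest library and its nearest neighbour was compared with the whole range, by Dixon's criterion at its 95% level (a ratio of 0.71). Of 80 groups examined, 9 passed, and chance passes about 5% of groups. Of the 9, 4 are in control 1. There Aars had 207 CPM where the other controls had 89.8 to 121, Iars 63.8 where they had 32.5 to 35.5, Dars 88.7 where they had 69.4 to 74.1, and the mitochondrial methionine enzyme Mars2 20.8 where they had 13.0 to 14.65. In control 2, Fars2 had 88.7 CPM, below 110.0 to 118 in the other controls.

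In the cold group the far values were Hars2 and Vars2 in cold 2, at 55.0 CPM (47.1 to 48.6 in the others) and 29.8 CPM (39.3 to 41.5). Sars2 in cold 3 had 32.2 CPM (25.9 to 27.75), and Mars in cold 5 had 79.7 CPM (57.2 to 63.4). Sars2 is the one gene among these that passed the cold against control test, and its call held without cold 3.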

How the results depend on the processing

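Under the scalings, filters, tools and single-library omissions tried, Cars2 kept its call in all 21 alternatives (1.26 to 1.47) and Sars2 in 20, the exception being the joint omission of cold 2 and 3, which was chosen after seeing the data. With that omission 1 mitochondrial gene passed (1 higher, 0 lower) and 887 of all genes. Leaving out 1 library gave 0 to 3 cytosolic calls (3 without control 1, 1 without cold 5), 3 to 5 mitochondrial calls, 1 to 3 of them lower, 2 to 3 higher, and 1563 to 2441 calls over all genes. Without control 2 and cold 5 there was 1 cytosolic call. The lower mitochondrial count was 1 without scaling and 1 with the replicate block. The cytosolic minus mitochondrial median was -0.14, from -0.19 to -0.0018 with 1 library left out (-0.0018 without control 2) and 0.0217 without control 2 and cold 5; the cause was not tested. The mitochondrial median (0.06) was -0.06 without control 2, -0.06 without control 2 and cold 5, and -0.01 with the sets split by the final 2 of the symbol, which also took the difference to -0.07. Leaving out Gars and Kars gave a cytosolic median of -0.10 and a difference of -0.16. Counts of calls did not change under these 2 groupings.

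The labels do not say that replicate numbers pair the samples. Same-numbered libraries correlated at -0.25 to 0.19, other numbers at -0.19 to 0.23, and 3 of 10 libraries correlated best with their own number. So few libraries cannot exclude a pairing. The replicate block gave 1789 calls over all genes in place of 2168 and ended the call of Rars2 among the members. The sign of Aars, Aimp2, Cars, Dars, Eprs, Fars2, Farsb, Hars, Iars, Lars2, Sars, Tars, Tars2 and Vars changed under at least 1 alternative; none of these passed the test in any. Counts of 42 to 138 per library limit Ears2, Pars2 and Mars2. Other members also reached into this range, among them Aimp2 (43 to 114) and Cars (56 to 144), the partner of Cars2. So did Sars2 (from 71) and Wars2 (from 78), which passed the test.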
